A study of Mus musculus with 6 samples.

Results

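Membrane traffic genes of the Rab, sorting nexin, Vps, syntaxin and VAMP families were compared between splenic NK1.1+ cells of C57BL/6 wild-type (B6) mice and of TLR7tg mice, which carry a Tlr7 transgene and are used as a lupus model. Members were the genes whose platform symbol is Rab, Snx, Vps, Stx or Vamp followed by a digit. The array held 311 probes for 153 such genes, and 123 of them were measured, of 9173 genes in all. A gene counted as measured where its brightest probe reached 6.9 on the deposited log2 scale in at least 3 of the 6 mice, and it was read through that probe.

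There were 3 mice of each kind, described by strain and mouse identifier, and their RNA was hybridised to Illumina mouse BeadArrays. The sample labels name NK cells for B6 and NK1.1+ cells for TLR7tg, and the series design speaks of NK1.1+ cells throughout. The sources used here give no age, sex, transgene promoter or isolation method. In its title, replicate 1 of TLR7tg bears the mouse identifier of replicate 1 of B6, but its other labels give a different one. Replicate 1 of either group is an average of 2 technical arrays, and the other mice are separate biological replicates. The measured members were detected on both of those arrays in 120 of 123 cases in B6 replicate 1 and likewise in TLR7tg replicate 1.

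Rab proteins are small GTPases that mark a membrane and recruit the motors, tethers and coats that act on it. Sorting nexins bind phosphoinositides on endosomes, and Vps proteins, named for vacuolar protein sorting in yeast, form the ESCRT, HOPS, retromer and GARP complexes of the endosome and lysosome route. Syntaxins and VAMPs are SNAREs, which pair across membranes and fuse them. NK cells use this machinery to release lytic granules, and phagocytes use it to mature the phagosome.

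The groups differed in cell markers. All 8 measured NK cell markers fell, and their mean log2 level was 11.36 to 11.47 in B6 mice and 7.71 to 8.99 in TLR7tg mice. Of 10 neutrophil markers 9 rose (from 6.86 to 7.51 in B6 mice, and from 8.57 to 11.90 in TLR7tg mice), and of 12 monocyte markers 7 rose (9.67 to 10.18, and 11.08 to 11.30). Of 6 T cell markers 4 fell, of 4 erythroid markers 3 rose, of 8 red pulp macrophage markers 3 fell, of 4 B cell markers 0 passed by limma, 1 of them with an unadjusted p under 0.05, and of 3 platelet markers 1 rose and 1 fell. Among the markers below the detection rule were Gzma and Gzmb of NK cells, Ly6g and Cxcr2 of neutrophils, and Cd4 and Cd8a of T cells. In bulk samples fewer cells of a type and less RNA per cell cannot be told apart. The part of these cell types in the differences below was not tested.

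Most traffic genes differed little. Of the 123 measured members 10 were higher and 3 lower in TLR7tg cells at a limma adjusted p under 0.05, which is 10.6%, while 14.7% of all measured genes passed (7.74% higher and 6.97% lower). The 10 that rose were the GTPases Rab32, Rab31 and Rab7b, the sorting nexins Snx20, Snx21, Snx10 and Snx9, the syntaxins Stx7 and Stx12, and Vamp4. The 3 that fell were the ESCRT gene Vps37b, the Rab11 effector gene Rab11fip4 and the Golgi GTPase gene Rab6b. Differences lay between -1.25 and 1.91 on the log2 scale with a median of 0.05, beside -0.06 over all genes. Of the members 94 (76.4%) differed by less than 0.5, against 72.9% of all genes, and 8 (6.5%) by at least 1, against 9.83%. The groups did not overlap in 37 members, 21 with TLR7tg above and 16 with it below, and 32.7% of all genes had groups that did not overlap.

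**Figure D1:**
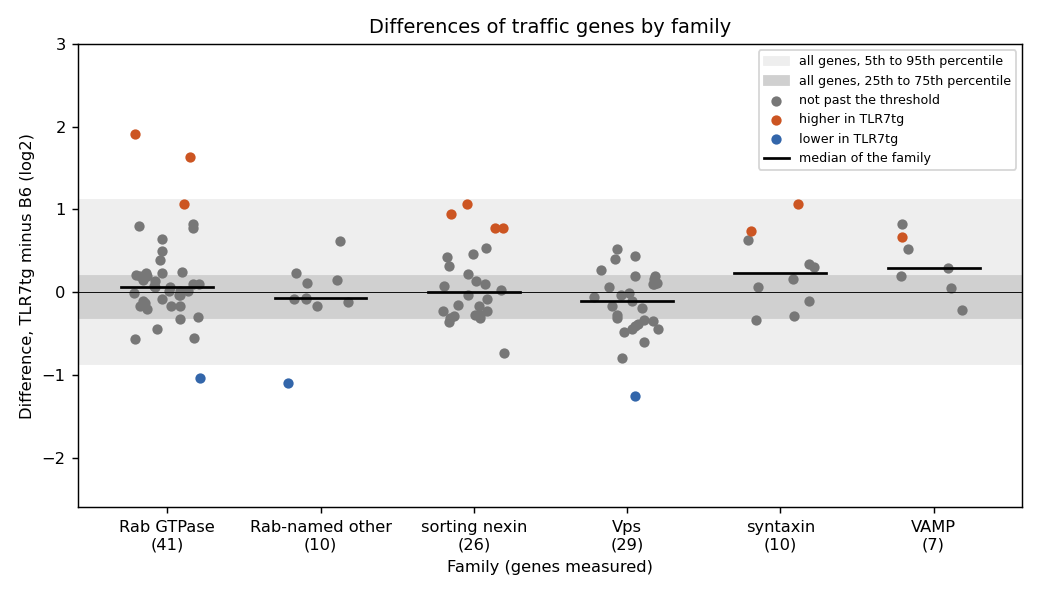
Difference between TLR7tg and B6 (log2, vertical axis) of each of the 123 measured traffic genes by family, with the number of genes under each name. Points are genes, black lines family medians, and grey bands the 5th to 95th and the 25th to 75th percentile of all 9173 genes. Most points lie near 0, and the 2 highest are Rab32 (1.91) and Rab31 (1.64).

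By family, 3 of 41 Rab GTPases rose and 1 fell (9.76%, beside 14.7% of all genes), with a median difference of 0.06. Of 10 syntaxins 2 rose (20.0%), with a median of 0.23. Of 7 VAMPs 1 rose (14.3%), with a median of 0.29 and 6 of 7 differences above 0. In the Vps family 18 of 29 differences were below 0, as were 5253 of 9173 over all genes. Differences between families were not tested.

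The count of members passing depended on single mice and on blocking. Leaving out B6 replicate 2 gave 3 higher and 2 lower, and the share of all genes passing fell from 14.7% to 8.31%. There were 6 higher when replicate 1 or 3 of B6 or replicate 3 of TLR7tg was dropped. In that order, 10.6%, 10.1% and 11.7% of all genes passed, so that the fall in these fits was not limited to the members. With neighbouring mouse identifiers as a block 20 were higher and 7 lower, while the share of all genes passing was 24.9% in that fit. With the slide of the replicate 1 mice as a block 16 were higher and 7 lower, beside 22.9% of all genes.

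Promoters of Rab32 and Rab31, the 2 largest rises, of Stx7, which passed under every alternative, and of Rab6b, the only fallen member with an entry, are shown because the results turn on these genes. They run from 250 bases before to 50 bases after the gene start in RefSeq (GRCm38.p6), read 5′ to 3′ on the strand of the gene. Of the 13 members past the threshold 8 had a promoter in that table. Capitals mark a match to the PU.1 motif GAGGAAGT, PU.1 being a transcription factor of myeloid cells.
Rab32 (chr10:10558158-10558457, minus strand): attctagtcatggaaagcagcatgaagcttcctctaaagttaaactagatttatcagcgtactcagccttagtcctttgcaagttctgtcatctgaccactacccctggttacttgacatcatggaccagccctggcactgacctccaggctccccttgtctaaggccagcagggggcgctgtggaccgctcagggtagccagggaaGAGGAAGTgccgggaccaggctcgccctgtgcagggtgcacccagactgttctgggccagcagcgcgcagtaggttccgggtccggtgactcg
Rab31 (chr17:65772703-65773002, minus strand): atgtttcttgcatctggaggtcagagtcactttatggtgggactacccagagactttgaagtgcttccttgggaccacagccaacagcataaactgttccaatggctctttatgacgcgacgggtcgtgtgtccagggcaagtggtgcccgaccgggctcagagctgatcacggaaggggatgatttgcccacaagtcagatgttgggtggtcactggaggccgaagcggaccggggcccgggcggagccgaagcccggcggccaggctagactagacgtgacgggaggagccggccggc
Stx7 (chr10:24149039-24149338, plus strand): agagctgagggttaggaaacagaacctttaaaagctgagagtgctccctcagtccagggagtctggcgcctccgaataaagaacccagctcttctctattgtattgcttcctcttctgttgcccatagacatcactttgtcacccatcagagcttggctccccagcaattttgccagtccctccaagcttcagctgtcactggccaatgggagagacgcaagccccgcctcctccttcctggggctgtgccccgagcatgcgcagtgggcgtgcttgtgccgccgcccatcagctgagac
Rab6b (chr9:103111824-103112123, plus strand): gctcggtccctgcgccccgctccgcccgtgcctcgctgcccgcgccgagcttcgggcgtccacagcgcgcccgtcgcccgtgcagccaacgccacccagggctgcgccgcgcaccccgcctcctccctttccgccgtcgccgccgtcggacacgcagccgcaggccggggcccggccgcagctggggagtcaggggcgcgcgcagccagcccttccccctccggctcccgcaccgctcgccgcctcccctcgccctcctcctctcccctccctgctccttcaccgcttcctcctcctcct
The motifs searched, on both strands, were GAGGAAGT, the interferon-stimulated response element, the RUNX motif TGTGGTT, the C/EBP motif TTGCNNAA and the CLEAR element TCACGTGA. The Rab32 match began 43 bases before the start and was the only match in the 8 promoters. PU.1 letters stood in 3.12% of the 96 member promoters, 3.5% of those of all measured genes and 3.28% of all 27025 promoters. The shares for the response element were 4.17%, 3.33% and 3.49%, for RUNX 4.17%, 3.69% and 5.37%, and for C/EBP 7.29%, 8.58% and 10.8%.

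The 2 members with the largest rises, Rab32 and Rab31, were on the phagosome list. That list was chosen with earlier results of these data known, and the Rab5 genes and Rab7 were placed on the endosome lists. Of 7 measured phagosome Rab genes 2 rose and 5 missed the threshold (28.6% passed, beside 14.7% of all genes). The median difference was 0.19. Rab32, which acts on lysosome-related organelles and in macrophages on vacuoles that hold bacteria, was 8.91, 9.75 and 10.67 (log2 signal) in the 3 B6 mice and 11.05, 12.13 and 11.90 in the 3 TLR7tg mice. All TLR7tg mice were above all B6 mice, B6 replicate 3 came within 0.5 of TLR7tg replicate 1, and the B6 mice were spread widely. The means were 9.78 ± 0.88 (SD, n = 3) and 11.69 ± 0.57 (SD, n = 3), so that Rab32 rose by 1.91 (SE 0.43, limma adjusted p = 0.0191), or 3.77-fold.

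Rab31, a relative of Rab22a on the trans-Golgi and endosome route, was 9.12, 9.81 and 10.53 in B6 mice and 11.09, 11.77 and 11.52 in TLR7tg mice. Its groups did not overlap, and its B6 mice had the same order as for Rab32. It rose by 1.64 (SE 0.34, limma adjusted p = 0.013), or 3.12-fold. The mean level of monocyte markers had that order in B6 mice too (9.67, 9.97 and 10.18). So did that of NK cell markers (11.36, 11.45 and 11.47), which were lower in TLR7tg mice. In TLR7tg mice the mean of monocyte markers was 11.30, 11.27 and 11.08. The part of either cell type in these rises was not tested. Without B6 replicate 2 or TLR7tg replicate 2 neither gene passed (adjusted p = 0.0726 and 0.0844 for Rab32, 0.0539 and 0.0616 for Rab31), and Rab32 did not pass without TLR7tg replicate 3 (0.0561). The labels name the slide only for the replicate 1 mice: between these the differences were 2.13 (Rab32) and 1.97 (Rab31), and among the other 4 mice 1.80 and 1.48.

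The other phagosome members did not pass. Rab43, which in mouse dendritic cells serves cross-presentation, was 7.93, 8.94 and 9.10 in B6 mice and 8.56, 9.76 and 10.04 in TLR7tg mice. These groups overlapped because TLR7tg replicate 1 lay below B6 replicates 2 and 3, and the difference was 0.80 (95% interval -0.15 to 1.74, adjusted p = 0.285). It passed when identifiers were blocked (adjusted p = 0.00614), without TLR7tg replicate 1 (0.0299) and among the 4 mice outside the named slide (0.0279).

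Rab14, of early phagosomes and the endosome to Golgi route, was 10.02, 10.40 and 11.19 in B6 mice and 10.32, 11.08 and 10.76 in TLR7tg mice, a difference of 0.19 (95% interval -0.52 to 0.89). Rab39, which acts in phagosome acidification, was 7.13, 7.76 and 7.72, and 7.29, 7.88 and 7.73, a difference of 0.10 (-0.44 to 0.63). In both genes the groups overlapped almost fully.

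Rab22a, of early endosomes, was 8.44, 8.23 and 8.01 in B6 mice and 7.99, 8.13 and 8.04 in TLR7tg mice, a difference of -0.17 (95% interval -0.58 to 0.23). Rab34, known from phagosome maturation and cilia, was 6.76, 7.31 and 7.15, and 6.73, 6.85 and 7.02, a difference of -0.20 (-0.65 to 0.24). Both had overlapping groups, and Rab34 was near the detection level. Rab20, another phagosome GTPase, and Rab38, the relative of Rab32, were not measured.

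No SNARE or GTPase on the granule list passed. Snap23, the plasma membrane partner of syntaxins, was read with another list and rose by 0.74 (limma adjusted p = 0.0389). Of 11 measured granule members 0 passed by limma, beside 14.7% of all genes, and the median difference was 0.20. An unadjusted p under 0.05 was found in 4 of these 11, and in 2544 of 9173 over all genes. Rab27a, which docks lytic granules at the plasma membrane and without which their release fails, was 10.49, 10.60 and 10.47 in B6 mice and 9.89, 9.74 and 10.25 in TLR7tg mice. The groups did not overlap, yet the difference was -0.56 (95% interval -0.98 to -0.14, adjusted p = 0.0882). Blocking on identifiers gave an adjusted p of 0.0455, and blocking on the slide 0.0487.

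Stx11, the syntaxin whose human mutations impair NK cell degranulation, lay the other way. It was 10.26, 10.25 and 10.37 in B6 mice and 10.69, 11.17 and 10.93 in TLR7tg mice, a difference of 0.63 (95% interval 0.22 to 1.05, adjusted p = 0.0514) with groups that did not overlap. It passed with either block (adjusted p = 0.022 and 0.0193), with cyclic loess (0.0269), with array weights (0.0277) and without TLR7tg replicate 1 (0.0333).

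Vamp8, a SNARE of granule and lysosome fusion, was 10.08, 10.18 and 10.25 in B6 mice and 11.19, 10.29 and 11.48 in TLR7tg mice. TLR7tg replicate 2 lay next to the B6 mice, and the difference was 0.82 (95% interval 0.17 to 1.46, adjusted p = 0.104). It passed without that mouse (1.16, adjusted p = 0.011) and with the identifier block (0.0349). Rab3d, a GTPase of secretory granules, was 9.18, 9.65 and 9.95 in B6 mice and 10.04, 10.96 and 10.11 in TLR7tg mice, a difference of 0.77 (95% interval 0.12 to 1.43, adjusted p = 0.128). Its groups did not overlap, and it passed with either block (adjusted p = 0.0371 and 0.0406).

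The remaining granule members had overlapping groups. Stx3, a plasma membrane syntaxin, was 7.68, 8.06 and 8.11 in B6 mice and 8.0, 8.38 and 8.40 in TLR7tg mice, a difference of 0.31 (95% interval -0.14 to 0.76). Stx4a, another one, was 9.13, 9.24 and 9.27, and 9.08, 9.14 and 9.61 (0.06, interval -0.37 to 0.50).

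Among the VAMPs, Vamp7 was 8.27, 8.42 and 8.13 in B6 mice and 8.28, 8.84 and 8.29 in TLR7tg mice (difference 0.20, interval -0.27 to 0.66). Vamp2 was 8.19, 8.76 and 9.08, and 8.11, 8.77 and 8.49 (-0.22, interval -0.82 to 0.38), and Vamp1 was 7.10, 7.55 and 7.34, and 6.96, 7.61 and 7.59 (0.05, interval -0.46 to 0.57). All of these VAMPs take part in regulated exocytosis, and none showed a separation of the groups.

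Rab3a, the GTPase of synaptic vesicles, was 7.39, 7.32 and 7.25 in B6 mice and 7.43, 7.29 and 7.30 in TLR7tg mice (difference 0.02, interval -0.34 to 0.39). Rab44, a large Rab known from mast cell granules, was 6.55, 6.71 and 7.14, and 7.07, 7.17 and 6.78 (0.21, interval -0.27 to 0.68). Rab44 was just inside the detection rule, with 3 mice at 6.9 or above, whereas Rab37 (6.47 to 7.28) was just outside with 2 such mice. Rab27b (6.64 to 6.89), the Rab27 of platelets, and Rab26, Rab3b and Rab3c were not measured either.

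**Figure D2:**
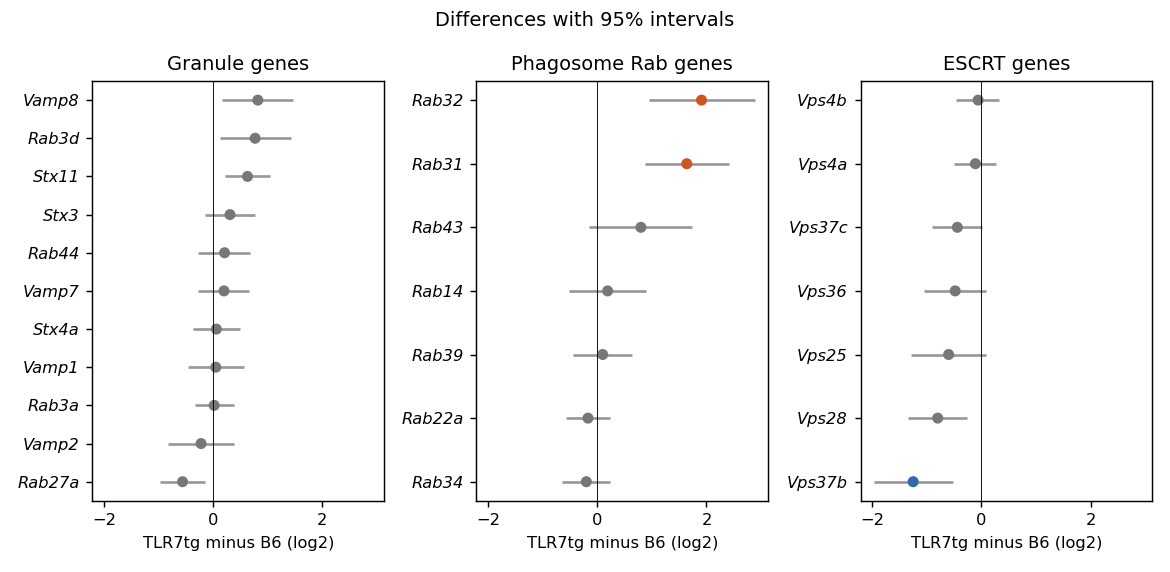
Difference between TLR7tg and B6 (log2, horizontal axis) with its 95% interval from limma for the 11 granule, 7 phagosome and 7 ESCRT members. Orange and blue points passed as higher and lower, and grey points did not pass. Rab32 and Rab31 stand to the right, Vps37b (-1.25) to the left, and all 7 ESCRT points lie below 0.

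Larger differences were found for 2 partners of the granule members. Of 9 measured docking and fusion genes 2 fell and 1 rose (33.3%, beside 14.7% of all genes), with a median difference of 0.02. Sytl2, which encodes a synaptotagmin-like effector that binds Rab27, was 11.05, 10.78 and 10.62 in B6 mice and 7.18, 7.48 and 8.09 in TLR7tg mice, and fell by 3.23 (SE 0.25, limma adjusted p = 0.000215). Sytl3, of the same effector family, was 10.79, 10.05 and 9.83, and 6.96, 7.08 and 7.64 (-3.00, adjusted p = 0.00041). In both genes the lowest B6 mouse was far above the highest TLR7tg mouse, and NK cell markers had the same pattern.

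The motor gene Myo5a rose by 0.70 (limma adjusted p = 0.0498), a call that ended without any 1 mouse other than TLR7tg replicate 3 (adjusted p from 0.0905 to 0.146). Stxbp2, which encodes the Munc18-2 partner of syntaxin 11, was 11.16 ± 0.24 (SD, n = 3) in B6 mice and 11.18 ± 0.07 (SD, n = 3) in TLR7tg mice, and Ap3d1 differed by -0.12.

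Among endosomal and lysosomal members, 4 rose and 1 fell of 55 measured. The share passing was 6.45% on the early and recycling endosome list and 12.5% on the late endosome and lysosome list. Of all genes 14.7% passed. Stx7, the syntaxin of late endosome fusion, was 10.21, 10.35 and 10.28 in B6 mice and 11.07, 11.58 and 11.36 in TLR7tg mice. The groups lay well apart, and it rose by 1.06 (SE 0.19, limma adjusted p = 0.00611), or 2.08-fold. Its adjusted p was at most 0.0291 over all 18 alternatives, and besides it only Snx20 passed in each of them. Its partner Stx8 was not past the threshold (-0.29).

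Rab7b, a GTPase of late endosomes that in mouse macrophages limits TLR4 and TLR9 signalling, was 6.97, 7.39 and 7.49 in B6 mice and 8.09, 8.07 and 8.90 in TLR7tg mice. It rose by 1.07 (SE 0.26, limma adjusted p = 0.027), TLR7tg replicate 3 was the highest, and its other kept probe gave 1.08. It did not pass without replicate 1 or 2 of B6 or replicate 3 of TLR7tg (adjusted p = 0.0777, 0.0808 and 0.0587). Rab7, the main late endosome GTPase, differed by 0.01 (SE 0.19), with 11.18 in B6 and 11.19 in TLR7tg mice.

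Stx12, the syntaxin of recycling endosomes, was 7.79, 7.97 and 7.91 in B6 mice and 8.45, 8.74 and 8.70 in TLR7tg mice, and rose by 0.74 (SE 0.17, limma adjusted p = 0.0207). The groups were apart by more than their spread, but with 5 mice it passed only where TLR7tg replicate 1 was left out (adjusted p from 0.0615 to 0.0695 without each of the others).

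Vamp4, of the trans-Golgi and early endosome route, was 9.44, 9.63 and 9.83 in B6 mice and 10.45, 10.12 and 10.36 in TLR7tg mice, and rose by 0.67 (SE 0.18, limma adjusted p = 0.0432). Its second kept probe went the other way (-0.29), the mean of its probes gave 0.19 (adjusted p = 0.553), and the call ended without any 1 mouse (adjusted p from 0.0529 to 0.139).

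The brightest endosomal members were flat or did not pass. Rab11b, a GTPase of recycling endosomes, differed by -0.01 (SE 0.18), Rab8b by 0.06 and Snx2, a retromer nexin, by 0.42 (SE 0.32). Rab5a, the early endosome GTPase, lay just short of the threshold and was picked with its values known. It was 9.14, 9.27 and 8.85 in B6 mice and 9.77, 10.36 and 9.59 in TLR7tg mice, a difference of 0.82 (SE 0.23, limma adjusted p = 0.0506), while Rab5b (-0.17) and Rab5c (0.23) did not pass. Rab5a passed with the identifier block (adjusted p = 0.00709), with the slide as block (0.0329), with the raised detection level, cyclic loess, median centring and array weights, and without TLR7tg replicate 3. Of its 3 kept probes the lowest difference was 0.13.

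Of the Vps family 1 of 29 members passed (3.45%, beside 14.7% of all genes), and its median difference was -0.11. Vps37b, a subunit of ESCRT-I, which sorts ubiquitinated receptors into multivesicular bodies, was 10.10, 10.37 and 10.57 in B6 mice and 8.32, 9.32 and 9.65 in TLR7tg mice. It fell by 1.25 (SE 0.32, limma adjusted p = 0.0339), and TLR7tg replicate 1 was the lowest. It did not pass without replicate 2 or 3 of B6 or replicate 2 of TLR7tg (adjusted p = 0.112, 0.111 and 0.0723).

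Grouped by complex after the values were seen, all 7 measured ESCRT members had differences below 0, with a median of -0.48. Vps28, another ESCRT-I subunit, was 13.41, 13.18 and 13.47 in B6 mice and 13.03, 12.13 and 12.51 in TLR7tg mice (-0.80, SE 0.24, limma adjusted p = 0.0614, and 0.0133 with the identifier block). The ESCRT-II genes Vps25 (-0.60) and Vps36 (-0.48), the ESCRT-I gene Vps37c (-0.44) and the ATPase genes Vps4a (-0.11) and Vps4b (-0.06) did not pass. By comparison the medians were -0.15 over 6 HOPS and CORVET genes, 0.05 over 4 genes of the retromer core, 0.03 over 5 of its nexins and 0.15 over 4 GARP and EARP genes, with no member past the threshold by limma and, at an unadjusted p under 0.05, 2 of the retromer core and 0 of the rest. The identifier block also called Vps26a of the retromer core (0.52, adjusted p = 0.0392) and the retromer nexin Snx1 (0.54, adjusted p = 0.033), both in the direction opposite to Vps28.

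Sorting nexins gave 4 rises of 26 measured (15.4%), with a family median of 0.00. Of all genes 7.74% were higher and 14.7% passed in either direction. Snx20, which binds the selectin ligand PSGL-1, was 8.38, 8.50 and 8.40 in B6 mice and 9.49, 9.42 and 9.59 in TLR7tg mice, and rose by 1.07 (SE 0.16, limma adjusted p = 0.00288), or 2.10-fold. Mice of a group were within 0.2 of each other, and its adjusted p was the lowest of all members. Snx21, its closest relative, was 6.89, 6.83 and 7.06 in B6 mice and 7.89, 7.68 and 8.06 in TLR7tg mice, and rose by 0.95 (SE 0.18, limma adjusted p = 0.00791). Only 1 B6 mouse reached the detection level for Snx21, so that it was measured through the TLR7tg mice.

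Snx10, which serves endosome acidification and in osteoclasts bone resorption, was 10.18, 10.43 and 10.24 in B6 mice and 10.77, 11.30 and 11.14 in TLR7tg mice, and rose by 0.78 (SE 0.19, limma adjusted p = 0.0283). The call ended without any 1 mouse other than TLR7tg replicate 1 (adjusted p from 0.0716 to 0.0959), and a dimmer probe gave 0.27. Snx9, a dynamin partner in endocytosis, was 7.48, 7.49 and 7.51 in B6 mice and 8.15, 8.48 and 8.20 in TLR7tg mice, and rose by 0.78 (SE 0.17, limma adjusted p = 0.016). B6 mice hardly differed for Snx9, and leaving out B6 replicate 2 or 3 ended the call (adjusted p = 0.0707 and 0.0562). Its relatives Snx18 (-0.23) and Snx33 (-0.74, adjusted p = 0.0765) did not pass, although Snx33 did with either block (adjusted p = 0.016 and 0.0498).

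Of 14 measured members of the ER and Golgi route 1 fell (7.14%, beside 14.7% of all genes passing in either direction). Rab6b, the Rab6 form known from brain, was 7.87, 8.12 and 8.36 in B6 mice and 7.19, 7.17 and 6.89 in TLR7tg mice, and fell by 1.04 (SE 0.19, limma adjusted p = 0.00779), with 1 TLR7tg mouse just below the detection level. Rab6a, its close relative, differed by -0.30 and did not pass, and Stx5a (-0.34), Rab2a (-0.17) and Vps53 (-0.01) did not either. Probe sequences were not used here, so that cross-hybridisation between related Rab genes was not tested.

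Of the 10 measured genes that carry a Rab name without being a GTPase, 1 passed. Rab11fip4, an effector that links Rab11 to recycling endosomes, was 8.07, 8.0 and 7.73 in B6 mice and 7.13, 6.54 and 6.83 in TLR7tg mice, and fell by 1.1 (SE 0.20, limma adjusted p = 0.00776). It met the detection rule through the B6 mice, and of the TLR7tg mice 1 reached the level, so that the low end of this difference rests on values near background. Rab6b, Rab11fip4, Snx20, Snx21 and Stx7 passed without each mouse in turn. Rab11fip5 (0.62) did not pass (limma adjusted p = 0.238), but 1 of its 2 kept probes, the dimmer one (0.65), did, and both blocks called it (adjusted p = 0.0264 and 0.0314). Rab26os, an antisense transcript, and Vps72, a chromatin protein with a Vps name, differed by -0.08 and -0.31.

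**Figure D3:**
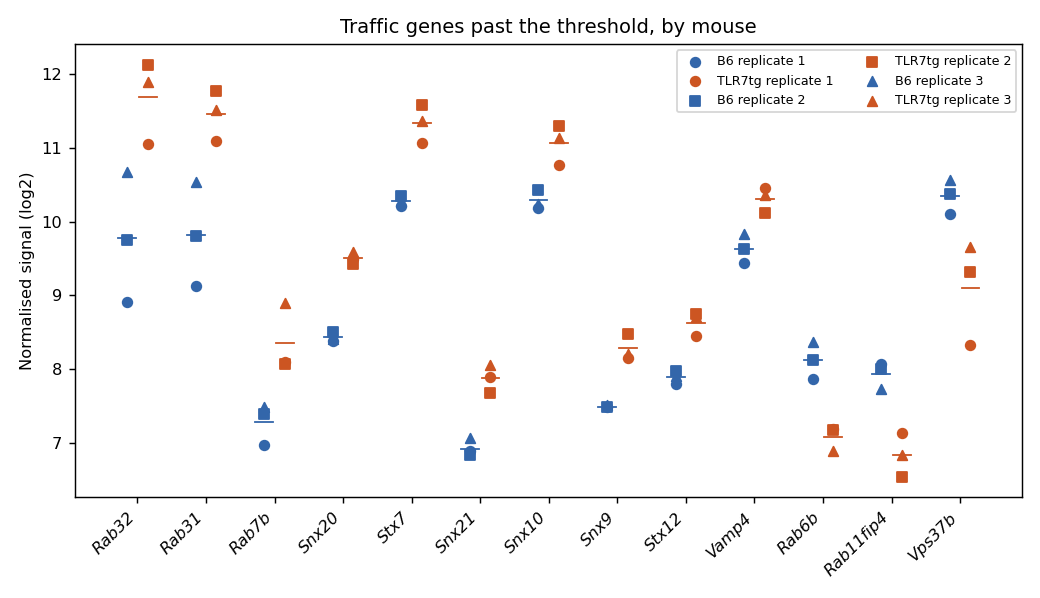
Normalised log2 signal (vertical axis) in each mouse for the 13 members past the threshold, B6 in blue and TLR7tg in orange, with replicates by marker shape and lines at the means. No gene has overlapping groups, and the B6 mice are spread most for Rab32 (8.91 to 10.67) and Rab31 (9.12 to 10.53).

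Other genes that run the Rab cycle and SNARE recycling were read from lists outside the family names. Of 26 Rab regulators and effectors 2 rose and 1 fell (11.5%, beside 14.7% of all genes). Rin2, an exchange factor of Rab5, was 7.2, 7.50 and 7.76 in B6 mice and 9.39, 9.08 and 9.05 in TLR7tg mice, and rose by 1.69 (SE 0.20, limma adjusted p = 0.00107). Rilp, the Rab7 effector that recruits dynein to lysosomes, was below the detection level in all B6 mice and was at least 2.17-fold higher in TLR7tg mice (limma adjusted p = 0.00497), the mean of the latter set against 6.9. Tbc1d10c, a Rab GTPase-activating protein of lymphocytes that also inhibits calcineurin, was 12.53, 12.51 and 12.23, and 8.07, 9.75 and 9.59, and fell by 3.29 (SE 0.39, limma adjusted p = 0.00108). Hps3 (0.57) and Rabac1 (-1.22) did not pass.

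Of 16 other SNAREs and recycling factors 2 rose (12.5%, beside 14.7% of all genes passing in either direction). Nsf, the ATPase that takes SNARE complexes apart, rose by 0.90 (SE 0.19, limma adjusted p = 0.0157), and Snap23, the plasma membrane partner of syntaxins, rose by 0.74 (SE 0.20, limma adjusted p = 0.0389). Nsf did not pass without replicate 1 or 3 of B6 or replicate 2 of TLR7tg (adjusted p from 0.0524 to 0.0549) or with the mean of its probes (0.101). Snap23 lost its call without replicate 2 or 3 of B6 or replicate 1 or 2 of TLR7tg (adjusted p from 0.0589 to 0.163). Use1 (-0.28) and Napg (0.79, SE 0.34) did not pass.

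The last of the motifs searched is shown because it stood in the most members relative to other promoters. The CLEAR element TCACGTGA, bound by the lysosomal regulator TFEB, stood in 7 of the 96 member promoters (7.29%), in 2.07% of those of all measured genes and in 1.01% of all promoters. The windows of 30 bases that hold it are shown with the element in capitals, and Vps33a has it at 2 places.
Rab21 (chr10:115315604-115315633, minus strand): gcccaccgcggTCACGTGAcgaggggtgtg
Rab24 (chr13:55321961-55321990, minus strand): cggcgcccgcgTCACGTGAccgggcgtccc
Rab5a (chr17:53479127-53479156, plus strand): acccggggatgTCACGTGActtcggccccg
Vps16 (chr2:130424290-130424319, plus strand): aggcggcctcgTCACGTGAccccgaagggc
Vps26a (chr10:62486970-62486999, minus strand): cgcacggctcgTCACGTGAcaactagctct
Vps33a (chr5:123573026-123573055, minus strand): agcgactcggaTCACGTGAacgtcccgtca
Vps33a (chr5:123573010-123573039, minus strand): tgaacgtcccgTCACGTGAcgcaggcggcg
Stx6 (chr1:155158606-155158635, plus strand): ggcgatctgggTCACGTGAgcctgagtgcg
These genes did not share a direction. Rab5a (0.82), Vps26a (0.52), Stx6 (0.34) and Rab24 (0.10) had differences above 0, Vps33a (-0.39), Vps16 (-0.35) and Rab21 (-0.08) below, and none passed. The match describes letters only and was not tested as a binding site.

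**Figure D4:**
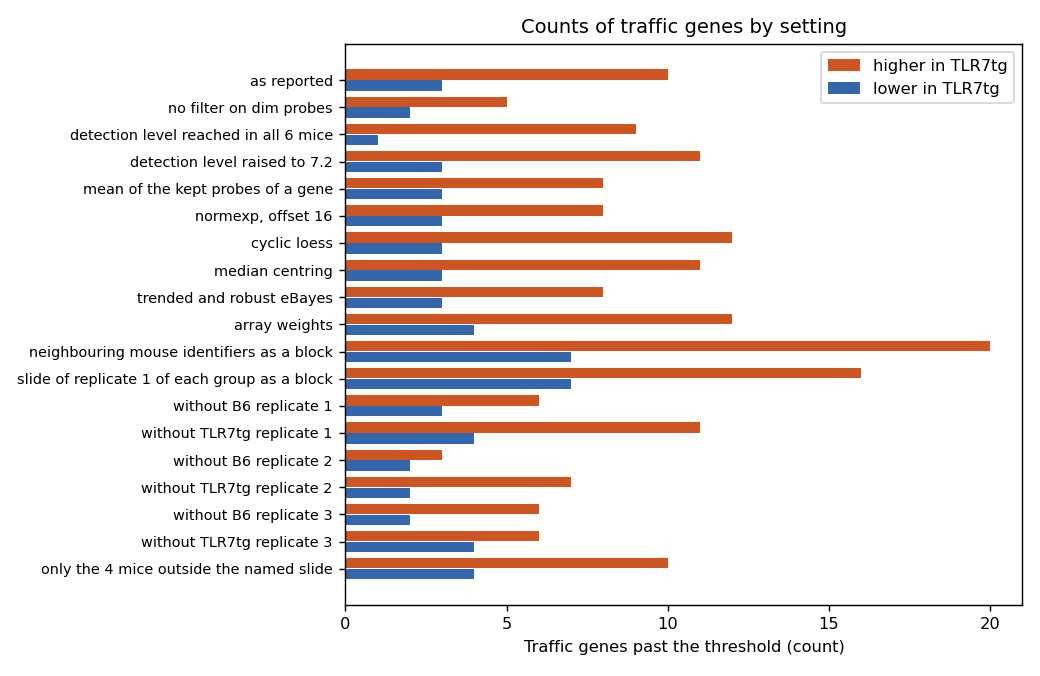
Number of traffic genes past the threshold (horizontal axis) as higher (orange) and lower (blue) in TLR7tg under the reported setting and each of 18 alternatives. The count of higher genes runs from 3 without B6 replicate 2 to 20 with neighbouring mouse identifiers as a block, and that of lower genes from 1 to 7.

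Of the 153 genes 30 stayed below the detection rule: Rab15, Rab17, Rab20, Rab25, Rab26, Rab27b, Rab2b, Rab30, Rab33a, Rab36, Rab37, Rab38, Rab3b, Rab3c, Rab40b, Rab42, Rab4a, Rab9b, Rab11fip1, Snx7, Snx19, Snx22, Snx31, Stx1a, Stx2, Stx16, Stx19, Vps13c, Vps37a and Vps37d. Of the measured members 52 had more than 1 kept probe, and in 32 of these all probes lay in the same direction. No member had a probe passing against its brightest one, and 15 of 197 kept probes passed.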

How the data were processed

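Splenic cells of 3 B6 and 3 TLR7tg mice were measured. The table of values deposited by the authors is on a log2 scale and covers 45281 probes, whose sorted columns differ by at most 0.0085, as after quantile normalisation; the sources used here do not name the tool. The deposited scanner table holds linear intensities and detection p-values per array, per its headers. Only the 4 arrays named in the labels of replicate 1 were used, for detection and to compare technical arrays. Between the 2 arrays of B6 replicate 1 the centred absolute log2 difference of members had a median of 0.0675 and reached 1.59. Centring was on the median of all measured genes. In TLR7tg replicate 1 the values were 0.0752 and 0.469. The 8 other columns were not used. Deposited values followed those intensities in rank (Spearman correlation 1.00 in both replicate 1 mice).

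Probes at 6.9 or above in at least 3 mice (16535) entered a linear model (limma 3.58.1, R 4.3.3), TLR7tg minus B6, with Benjamini-Hochberg adjustment over them and a threshold of 0.05. The lowest deposited value is 6.1, so that folds of dim genes may be understated. Gene names came from the platform annotation (34885 probes with 1 symbol, 18 with several, 10378 with none). The number of arrays limits the precision. The fit was tested on simulated data, in which values were drawn independently for each mouse. Correlation between mice of neighbouring identifiers was not part of that test.

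Members and lists were chosen with earlier results of these data known; lists of complexes were written after the values were seen. Members past the threshold were all named, with values by mouse for these and for granule and phagosome members; of the other lists up to 3 bright members that did not pass. Deviations from group means correlated by 0.629, 0.125 and 0.447 within mice of neighbouring identifiers, a pairing that the labels do not state, so that the block is an alternative. Other alternatives were dim-probe filters, probe averaging, normexp, cyclic loess, median centring, variance models, the slide as a block, leaving out each mouse and, added after seeing the data, the 4 mice outside the named slide.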

Additional observations from a re-analysis of the deposited data

How the results depend on the processing

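The 10 higher and 3 lower members became 20 and 7 with neighbouring mouse identifiers as a replicate block and 16 and 7 with the slide as a block. Without a filter on dim probes 5 were higher, and with the detection level reached in all 6 mice 1 was lower, where Rab6b, Rab11fip4 and Snx21 were not kept. Leaving out each mouse gave 3 to 11 higher and 2 to 4 lower members. All 13 members kept their direction in every alternative that measured them, and only Snx20 and Stx7 passed in all 18. Without a filter Rab31 (adjusted p = 0.0797), Rab32 (0.118), Rab7b (0.102), Snx10 (0.0508), Vamp4 (0.0544) and Vps37b (0.15) did not pass, with 19057 genes in the fit. Of the granule and phagosome members 5, none of which passed under any alternative, changed sign under some of them. Rab14 ran from -0.07 without B6 replicate 1 to 0.51 without B6 replicate 3. Rab39 was -0.01 with array weights, -0.11 without B6 replicate 1 and -0.02 without TLR7tg replicate 2, up to 0.27 without TLR7tg replicate 1. Rab3a was -0.02 without TLR7tg replicate 1 and -0.01 without B6 replicate 3, up to 0.06 without B6 replicate 1, and Stx4a ran from -0.10 without TLR7tg replicate 3 to 0.16 without TLR7tg replicate 1. Vamp1 was -0.13 with the mean of its probes, -0.01 with array weights, -0.06 without B6 replicate 1 or TLR7tg replicate 2 and -0.05 without TLR7tg replicate 3, up to 0.27 without TLR7tg replicate 1. Of 11 granule members 3 were higher and 1 was lower with the identifier block, a fit in which 24.9% of all genes passed. The cause of these changes was not tested.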

Other observations

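Other coat and tether genes of membrane traffic, listed after the values were seen, held few calls, while 14.7% of all genes passed. Of 17 further ESCRT genes 1 fell, Mvb12b, a subunit of ESCRT-I, which was 7.75, 8.11 and 8.02 (log2 signal) in B6 mice and 7.18, 7.0 and 7.12 in TLR7tg mice (-0.86, SE 0.17, limma adjusted p = 0.0121). Differences were below 0 in 12 of these 17 genes, with a median of -0.14 beside -0.06 over all genes, of which 5253 of 9173 were below 0. Of 18 clathrin and adaptor genes 1 fell, the adaptor gene Ap1g2 (-0.74, SE 0.17, limma adjusted p = 0.019). No gene of the exocyst (8 measured), the COPI coat (8) or the COPII coat (8) passed by limma, and 1, 0 and 0 of them had an unadjusted p under 0.05.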
